A study of Mus musculus with 10 samples.

Results

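The Foxp3 locus was examined in 4 lists of p65 ChIP-seq peaks from mouse T cells. Its members were all peak entries overlapping the Foxp3 gene body (chromosome X, 7579676 to 7595243 of mm10) or the 25 kb on each side of it. There were 5 such entries among 26132 in all lists together. All 5 belonged to the list of stimulated regulatory T cells (Treg), and the other lists had 0 entries in this window of 65.6 kb.

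Chromatin was immunoprecipitated with an antibody against p65 (RelA), a DNA-binding subunit of NF-kB, from C57BL/6 spleen and lymph node cells. The groups were conventional T cells (Tconv) and Treg, each unstimulated or kept for 3 h on plates coated with anti-CD3 in the presence of soluble anti-CD28, which act on the T cell receptor complex and on its co-stimulatory receptor. IL-2 was added at 2 ng/ml to the Tconv culture and at 10 ng/ml to the Treg culture, so cell type and IL-2 dose cannot be told apart in the stimulated groups. The medium and IL-2 of the unstimulated cells, the number and sex of the mice and the purity of the sorted cells are not given in the sources used here. Each immunoprecipitated group had 2 libraries, and 2 input libraries held chromatin of both cell types and both states. The deposited lists pool the libraries of a group, which leaves no spread between replicates and no test between groups. Peaks do not report expression, so the cell labels could not be checked against marker levels.

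Foxp3 encodes the forkhead transcription factor that defines Treg, and its loss causes fatal autoimmunity. Its transcription is controlled from a promoter and from conserved noncoding sequences (CNS). CNS1, which responds to TGF-beta, CNS2, a CpG-rich element that is demethylated in stable Treg and keeps Foxp3 on in dividing cells, and CNS3, a known site of the NF-kB subunit c-Rel, lie in introns of the gene. CNS0 lies upstream of it, inside the neighbouring gene Ppp1r3f. Engagement of CD3 and CD28 is known to release NF-kB dimers from their cytoplasmic inhibitors, after which they enter the nucleus.

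Stimulated Treg carried p65 peaks at the promoter and at the positions of CNS0 and CNS2, plus a peak farther upstream and a weak one downstream. Below, positions are distances from the annotated Foxp3 start on the plus strand (7579676), with negative values upstream, and fold is the authors' enrichment of a peak summit over its local background. The element positions are approximate and come from background knowledge: -9 to -8 kb for CNS0, 2.0 to 2.7 kb for CNS1, 4.3 to 4.8 kb for CNS2 and 6.9 to 7.1 kb for CNS3.

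The strongest entry was at the position of CNS2, inside the Foxp3 body (chromosome X, 7583694 to 7584964, 1271 bp). Its summit lay at 4.47 kb, within the CNS2 interval, and reached 32.1-fold with a −log10 p of 228. In the fold ranking of the 13078 stimulated Treg entries it stood at 862, above 93.4% of them. The lists of unstimulated Treg, unstimulated Tconv and stimulated Tconv had 0 entries there.

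The next strongest lay upstream, at the position of CNS0 (7570574 to 7571384, 811 bp). Its summit at -8.72 kb reached 30.8-fold with a −log10 p of 215 and stood above 92.6% of the list. It lies inside Ppp1r3f, which encodes a regulatory subunit of protein phosphatase 1 and runs on the opposite strand, and not at that gene's start. The CNS2 entry was 1.04 times as high, so these distal entries, separated by the promoter, had nearly the same enrichment.

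The promoter entry was weaker (7578796 to 7580036, 1241 bp), with 14.8-fold enrichment and a −log10 p of 76.9, above 68.4% of the list. Its summit lay 204 bp upstream of the Foxp3 start. That position is also inside Flicr, a long noncoding RNA gene (7573600 to 7581016) known as a negative regulator of Foxp3. The enrichment at CNS2 was 2.17 times that at the promoter. A second annotated Foxp3 start at 7580483 was not under the entry, and its promoter window began 196 bp beyond the entry's end.

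Another entry lay farther upstream in Ppp1r3f (7566297 to 7568135, 1839 bp), with its summit at -11.9 kb, 14.3-fold enrichment and a −log10 p of 73.1. No element of those listed lies there. The last was inside Cacna1f, a retinal calcium channel gene (7617784 to 7618785, 1002 bp), at 38.7 kb. It was the weakest, with 9.12-fold enrichment, a −log10 p of 44.7 and 30.6% of the list below it. Introns and exons were not analysed here, so positions are given by gene body alone.

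CNS1 and CNS3 had no entry. The CNS1 interval lay 1.32 kb from the edge of the CNS2 entry, and the CNS3 interval lay 1.61 kb beyond its other edge. The starts of Ppp1r3f, Ccdc22 (a subunit of an endosomal sorting complex) and Cacna1f, which share the window, were likewise without an entry in all 4 lists. Flicr had the RefSeq start nearest to the CNS0 and -11.9 kb summits, 2.64 kb and 5.86 kb away. Of the 5 summits 1 was within 1 kb of a RefSeq start, against 32.4% of all stimulated Treg entries.

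**Figure D1:**
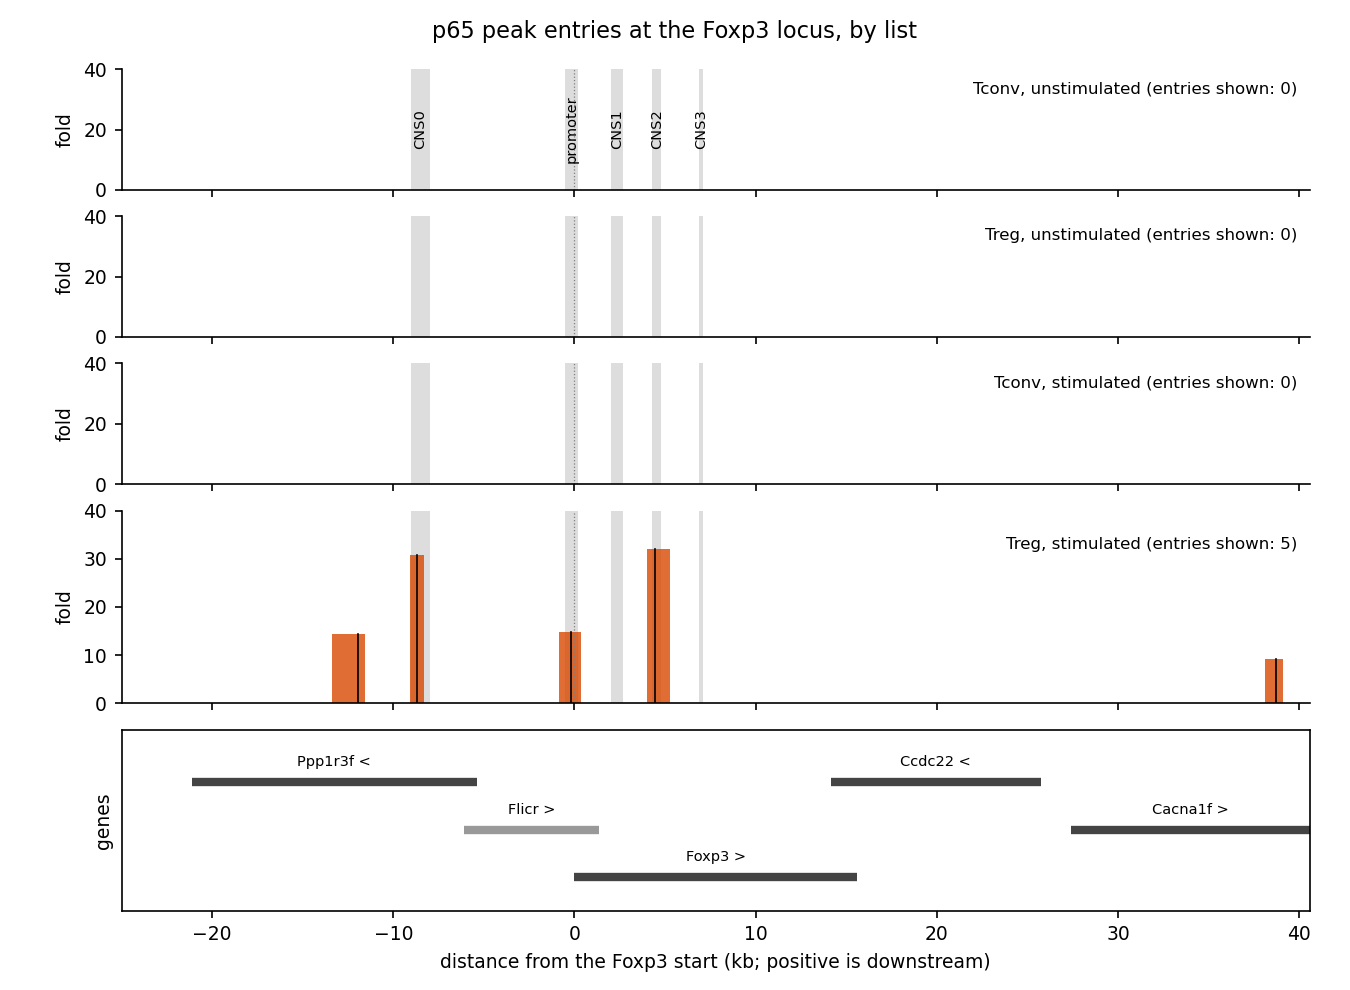
Peak entries at the Foxp3 locus in the 4 lists, drawn as boxes from entry start to end with the authors' fold enrichment as height and the summit as a black line, against distance from the Foxp3 start in kb. Grey bands are the approximate element positions and the lowest track shows gene bodies with strand. Stimulated Treg has 5 entries, with the highest at the CNS2 (32.1-fold) and CNS0 (30.8-fold) positions, and the other lists have 0.

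The promoter sequence is shown because a p65 summit falls in it and because it differs from most promoters under p65 peaks. These are the 250 bases before the Foxp3 start from RefSeq's GRCm38.p6 table (chrX:7579426-7579675, plus strand), all under the entry of stimulated Treg. Capitals mark matches to GGAAA, the core shared by NF-kB and NFAT sites, printed as its complement TTTCC, and to TATAA. Both strands were searched.
Foxp3 promoter: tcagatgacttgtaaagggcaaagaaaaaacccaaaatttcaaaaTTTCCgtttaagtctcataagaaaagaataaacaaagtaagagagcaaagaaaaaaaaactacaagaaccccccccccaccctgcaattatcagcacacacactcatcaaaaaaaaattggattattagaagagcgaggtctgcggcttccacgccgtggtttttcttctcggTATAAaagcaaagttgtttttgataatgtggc

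The TTTCC at 7579471 to 7579475 covers the summit base of the promoter entry (7579472). Another TTTCC, at 7579678 to 7579682, lies beyond the printed bases and begins 2 bp after the start. The TATAA begins 32 bp before the start. A kappa B form, GGG and CC with any 5 bases between them, was searched on both strands and had 1 match in the full window of 300 bases, GGCTGATCCC, which reads on the minus strand and begins 16 bp after the start. None of these matches overlap another. Such short motifs are common: of 32851 RefSeq promoter windows of this length 50.8% hold this kappa B form, 61.3% GGAAA and 24.9% TATAA. Among the 4874 windows overlapped by a stimulated Treg entry the shares were 71.2%, 60.8% and 10.3%.

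The Foxp3 window was poor in G and C for a p65-bound promoter. It held 40.7% G and C, where the median was 52.7% over all windows and 63.7% over those under a stimulated Treg entry. Of the latter, 0.985% had a lower content. No sequence of the CNS entries was used here.

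The absence of Tconv entries is read against the end of each list and against regions of like strength. The lowest −log10 p was 38.1 in stimulated Tconv, 13.3 in unstimulated Tconv and 15.1 in unstimulated Treg, so entries below those values cannot be seen. All 5 Treg entries had higher values in their own list (44.7 to 228). By their names, the lists were also filtered for agreement between libraries (irreproducible discovery rate). A Tconv call above 38.1 that differed between the 2 libraries could therefore be missing too. Depth per library is unknown, and a weaker Tconv signal under the end of the list cannot be told apart from none.

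After overlapping entries were merged, stimulated Treg had 11077 regions, and the 5 Foxp3 entries stayed 5 separate regions. The entries at CNS2 and CNS0 fell in the strongest decile by fold (28.1-fold and above). In that decile 1054 of 1108 regions (95.1%, 95% Wilson interval 93.7 to 96.2%) had an overlapping region in stimulated Tconv, and 54 (4.87%, 3.75 to 6.30%) were in stimulated Treg alone, with no counterpart in the other lists. Both Foxp3 regions were among those 54. The intervals cover counting error over regions alone.

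The promoter and the -11.9 kb regions were in the seventh decile, where 743 of 1107 (67.1%, 64.3 to 69.8%) had a stimulated Tconv counterpart. The Cacna1f region was in the third decile, where 280 of 1108 (25.3%, 22.8 to 27.9%) had one. Lack of a Tconv counterpart was thus uncommon at the strength of the CNS2 and CNS0 regions and common at that of the Cacna1f region.

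Of all 4899 regions in stimulated Treg alone, 33 were as strong as the CNS2 region or stronger, itself included, and 99.3% were weaker. On the X chromosome 122 of 198 stimulated Treg regions (61.6%) were in that list alone, against 44.2% over the genome. Of the 11 X-linked regions at or above the CNS0 region's fold, 2 were in stimulated Treg alone, and these were the CNS0 and CNS2 regions. That limit is a member's own fold, so both were included by construction. At or above the promoter region's fold, 18 of 53 X-linked regions were in stimulated Treg alone.

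**Figure D2:**
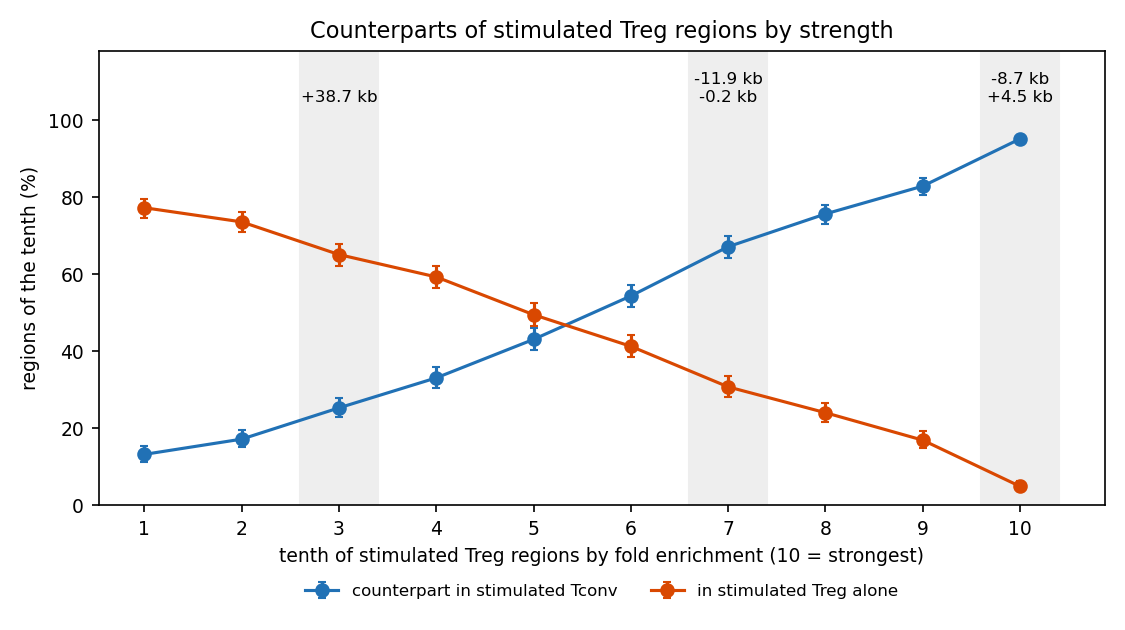
Share of stimulated Treg regions, in percent, with a counterpart in stimulated Tconv (blue) and in no other list (orange), by decile of fold enrichment from weakest (1) to strongest (10). Bars are 95% Wilson intervals and grey bands mark the deciles of the 5 Foxp3 regions, with 95.1% of the strongest decile shared with stimulated Tconv.

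Entries beside the locus were present in Tconv. Downstream, at 91.7 kb and 94.5 kb from the Foxp3 start, both stimulated lists had entries. The nearer one crosses the far edge of Plp2, and the other lies inside Magix. They had 9.05-fold and 9.38-fold in Treg and 10.4-fold and 10.0-fold in Tconv. At the start of Tfe3, which encodes a basic helix-loop-helix factor, 183 kb away, the entries reached 17.0-fold in stimulated Treg, 14.2-fold in stimulated Tconv and 5.81-fold in unstimulated Treg. A place 135 kb away, near Wdr45, was entered in both unstimulated lists, at up to 10.5-fold in Treg and 9.79-fold in Tconv, and in neither stimulated one. Folds of different lists are not scaled to each other, so values set side by side here and below show that both lists have an entry, not which cell type had more p65. Upstream of the window, 3 lists had 0 entries on the chromosome, and the unstimulated Treg list had 1, ending 235 kb before it.

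**Figure D3:**
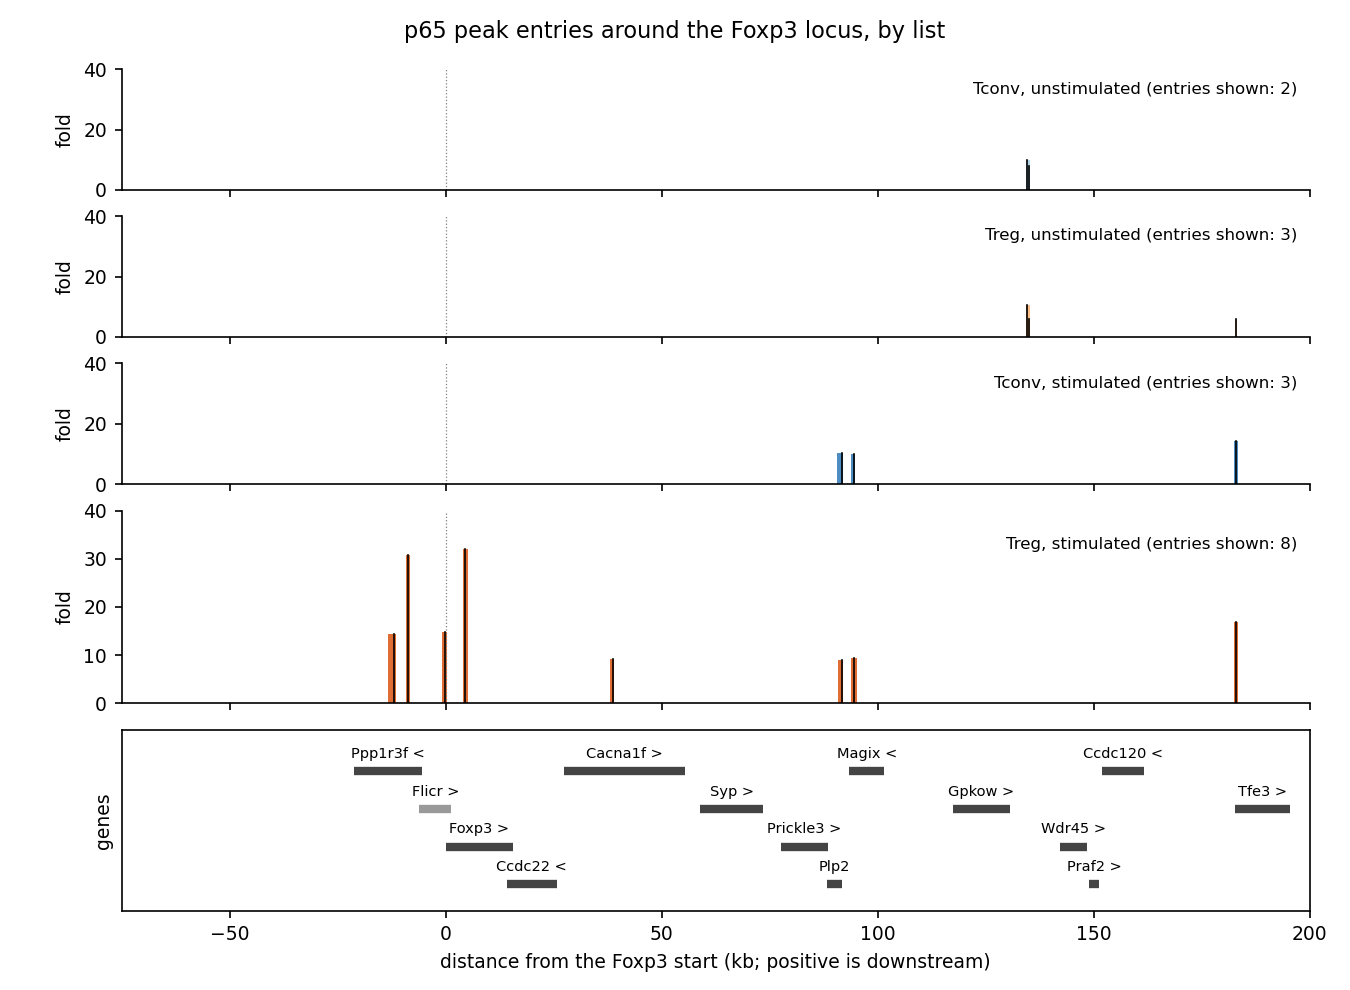
Peak entries in the 4 lists from 75 kb upstream to 200 kb downstream of the Foxp3 start, with the authors' fold enrichment as height (boxes, entry span; black lines, summits) and gene bodies below. Entries at Plp2, Magix and Tfe3 appear in both stimulated lists, while those at Foxp3 appear in stimulated Treg.

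The same window of gene body and 25 kb on each side was applied to 21883 protein-coding genes. An entry was found for 40.9% of genes in stimulated Treg, 28.8% in stimulated Tconv, 25.5% in unstimulated Treg and 24.6% in unstimulated Tconv. Entries in stimulated Treg and in no other list, the pattern of Foxp3, were found for 1868 genes (8.54%). These counts depend on list length. With each list held to its 3132 entries of highest −log10 p, the length of the shortest list, the order turned, with an entry at 2590 genes in stimulated Treg, 3466 in stimulated Tconv, 5223 in unstimulated Treg and 5375 in unstimulated Tconv, and 260 genes had the Foxp3 pattern. Windows with 5 or more stimulated Treg entries numbered 1012 (4.62%), and 21 of these (0.096%) had none in the other lists. Among the 10317 genes with a window no longer than that of Foxp3, 308 (2.99%) had 5 or more. Of these, 2 had them in stimulated Treg alone: Foxp3 and Il10, which encodes a suppressive cytokine. Both limits are the values of Foxp3 itself, so its inclusion was fixed in advance. Other genes with this pattern lie just beyond the length limit, such as Sh2d1a with a window of 69.5 kb.

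Of 966 X-linked genes, 16% had a stimulated Treg entry and 7.87% had one in that list alone. Windows with 5 or more entries were found at 11 (1.14%), and 4 of these were in stimulated Treg alone: Foxp3, Sh2d1a (which encodes the adaptor SAP), Tmem164 and Huwe1 (a ubiquitin ligase gene). Their highest folds were 32.1, 8.89, 19.6 and 15.3. By highest fold, 10 genes (0.0457%) had this pattern at the level of Foxp3 or above. They were led by Itgb8 (63.0-fold), an integrin gene for activation of TGF-beta, and Mdfic (49.2-fold), and 4 of them, Foxp3, Ppp1r3f, Ccdc22 and Cacna1f, share the CNS2 entry. Others of the 10 have equal highest folds in pairs, so the genes do not stand on 10 separate entries. The limit is the highest fold of Foxp3, so its inclusion was fixed in advance. An entry near several genes is counted for each and does not say which of them it acts on.

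Genes known to act upstream of Foxp3 mostly had p65 entries in both cell types after stimulation. The 46 genes were grouped as receptors, signalling to NF-kB, NF-kB subunits, other factors known at Foxp3 elements, and DNA methylation and chromatin. An entry was found at 42 in stimulated Treg, 41 in stimulated Tconv, 28 in unstimulated Treg and 26 in unstimulated Tconv, and 1 gene had the Foxp3 pattern. As shares of the 46 these were 91.3%, 89.1%, 60.9%, 56.5% and 2.17%, where the same shares over all protein-coding genes were 40.9%, 28.8%, 25.5%, 24.6% and 8.54%. The median of the highest fold per gene with an entry was 30.4 in stimulated Treg and 23.0 in stimulated Tconv, against 12.7 and 13.7 over all genes. The lists were chosen with earlier results known and were not tested.

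Among the 8 receptor genes 7 had an entry in each stimulated list. Il2ra, the IL-2 receptor alpha chain, reached 62.9-fold in stimulated Treg and 34.8-fold in stimulated Tconv, Cd3e 57.8-fold and 35.9-fold, and Tnfrsf1b, the TNF receptor 2 gene, 48.6-fold and 23.0-fold. Tgfbr1 had an entry in 0 lists. The signalling genes had entries at 6 of 8 in both stimulated lists, led in Treg by the kinase gene Prkcq (48.5-fold, 35.1-fold in Tconv). The paracaspase gene Malt1 had 20.7-fold in Treg and 14.1-fold in Tconv.

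All 5 NF-kB subunit genes had entries in all 4 lists. Nfkb1 was the highest of them in stimulated Treg at 64.2-fold (52.0-fold in Tconv), followed by Rel, which encodes c-Rel, with 61.2-fold (44.7-fold in Tconv), and Nfkb2 with 52.3-fold (56.4-fold in Tconv). Of the 20 other factors 19 had an entry in both stimulated lists. The orphan receptor genes Nr4a1 (95.3-fold in Treg, 61.4-fold in Tconv), Nr4a3 (89.0-fold and 53.1-fold) and Nr4a2 (65.2-fold and 29.3-fold) were the highest. Smad2 had an entry in 0 lists.

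Among the genes for DNA methylation and chromatin, the demethylating dioxygenase genes Tet3 (31.1-fold in Treg, 22.7-fold in Tconv) and Tet2 (27.2-fold and 13.6-fold) led, and Kmt2d, a histone methyltransferase gene, had 12.3-fold and 14.1-fold. Uhrf1, whose product recruits the maintenance methyltransferase, was the single upstream gene with the Foxp3 pattern, at 10.0-fold in stimulated Treg.

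In the Treg program list, 20 of 21 genes had an entry in stimulated Treg and 10 in stimulated Tconv, and 8 (38.1%) had the Foxp3 pattern, against 8.54% of all genes. The highest folds in stimulated Treg among the partner and factor genes were those of Irf4 (89.97-fold), Ikzf2 (44.8-fold) and Prdm1 (21.7-fold). Among surface and secreted products they were those of Icos (72.4-fold), Itgb8 (63.0-fold) and Tnfrsf18 and Tnfrsf4, neighbours that share their strongest entry (56.1-fold). Most of these also had stimulated Tconv entries: Irf4 reached 66.3-fold there, Prdm1 23.9-fold, Icos 46.0-fold, and Tnfrsf18 and Tnfrsf4 22.1-fold. Ikzf2 and Itgb8 had 0 entries in stimulated Tconv. Tnfrsf4 also had strong entries in unstimulated cells, at 48.8-fold in Tconv and 45.8-fold in Treg. In a list of 18 genes of B cells, myeloid cells and non-blood tissues, 4 had an entry in stimulated Treg and 3 in stimulated Tconv. These shares, 22.2% and 16.7%, were below those of all genes. Of the 18, 1 gene (5.56%), Gata1, had the Foxp3 pattern, against 8.54% of all genes. The 3 highest in stimulated Treg were the myeloid integrin gene Itgax (27.8-fold), the B cell receptor gene Cd79a (17.0-fold) and the erythroid factor gene Gata1 (8.89-fold), and the B cell genes Pax5, Ebf1 and Ms4a1 had 0 entries in all lists.

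**Figure D4:**
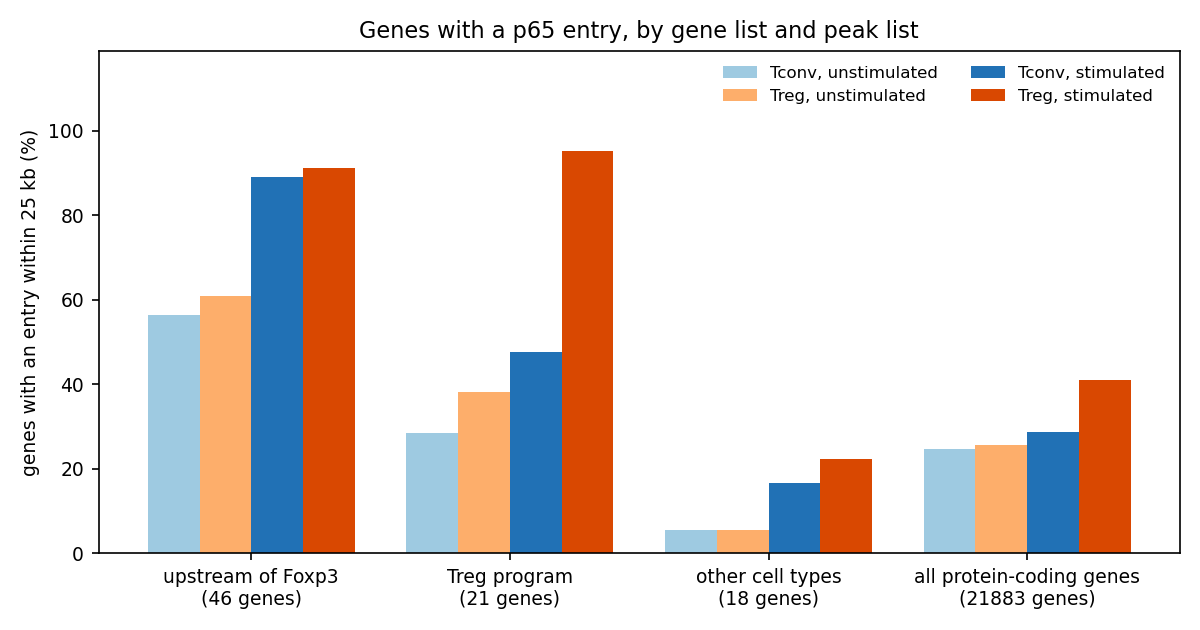
Percent of genes with a p65 entry within 25 kb of the gene body in each of the 4 peak lists, for 46 genes upstream of Foxp3, 21 genes of the Treg program, 18 genes of other cell types and all 21883 protein-coding genes. Upstream genes are at 91.3% in stimulated Treg and 89.1% in stimulated Tconv, and the Treg program is at 95.2% in Treg and 47.6% in Tconv.

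Of the 10 genes in these lists with entries in stimulated Treg alone, the 5 nearest to Foxp3 in highest fold on the log2 scale were Nrp1 (20.7-fold, 3 entries), Il10 (20.1-fold, 5), Rora (19.9-fold, 11), Itgb8 (63.0-fold, 8) and Entpd1 (16.0-fold, 4). Their distances from Foxp3 were 0.63, 0.67, 0.69, 0.97 and 1.005 log2 units over the 4 lists. Of these, Itgb8 was above Foxp3 and the others below it.

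Foxp3 had fewer stimulated Treg entries per length of window than the comparison genes Ikzf2, Ctla4 and Il2ra. Per 100 kb of window, stimulated Treg had 7.63 entries at Foxp3, 10.7 at Ikzf2 (which encodes Helios), 15.8 at the checkpoint gene Ctla4 and 21.9 at Il2ra. These densities count overlapping entries separately. Merging left 5 regions from 5 entries at Foxp3, 21 from 22 at Ikzf2, 8 from 9 at Ctla4 and 13 from 22 at Il2ra. Of the merged stimulated Treg regions, 0 of 5 at Foxp3 and 0 of 21 at Ikzf2 had a stimulated Tconv counterpart, against 1 of 8 at Ctla4 and 6 of 13 at Il2ra. Ikzf2 and Il2ra each had 1 weak entry in unstimulated Treg (5.72-fold and 6.72-fold), and Foxp3 and Ctla4 had 0. The highest fold at Foxp3 (32.1) was close to that at Ctla4 (31.3), whose stimulated Tconv entry reached 11.7-fold. These values have no replicate error, so the differences were not tested.

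**Figure D5:**
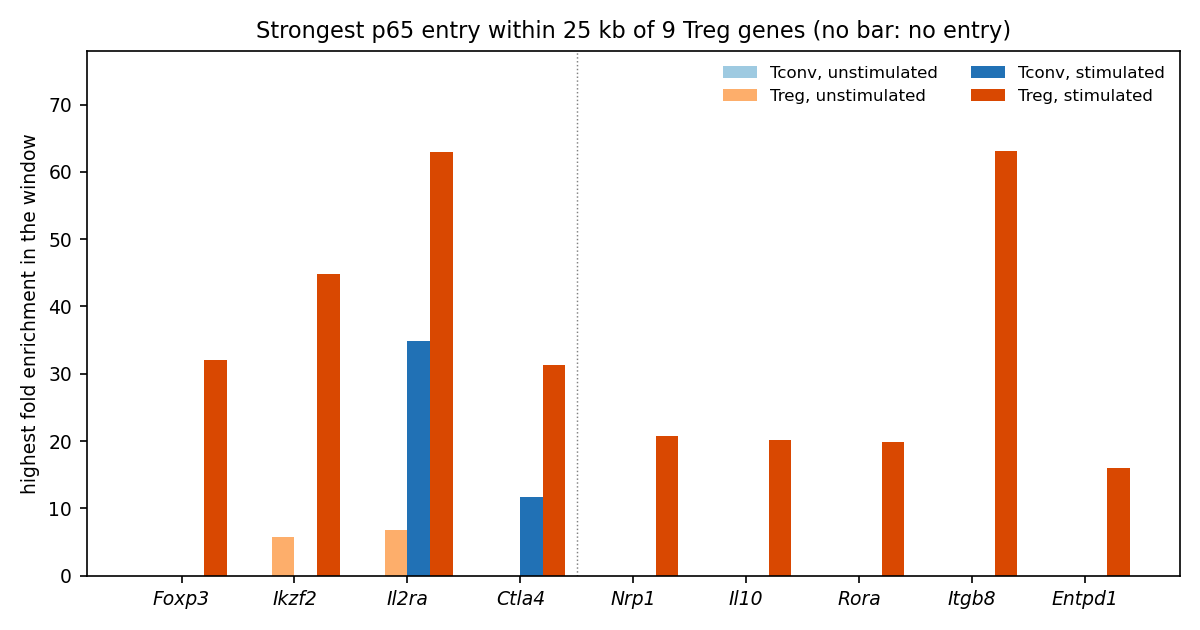
Highest fold enrichment of a p65 entry within 25 kb of 9 Treg genes in each peak list, with no bar where a list has no entry. Left of the dotted line are Foxp3 and the 3 comparison genes, and right of it the 5 genes nearest to Foxp3 in pattern, all with a bar in stimulated Treg and, at Foxp3 and those 5, in no other list.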

How the data were processed

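The submitters' processing notes list Trim Galore 0.4.1, BWA 0.7.15-r1140, the peak caller MACS2 2.1.1.20160309 and build mm10. By their names, the authors' deposited lists are pooled-replicate peaks, blacklist-free and filtered by a conservative irreproducible discovery rate. Fold enrichment (a ratio), −log10 p and −log10 q at the summit are the authors' deposited values and served to describe and rank entries within a list. The deposited score is 10 times the −log10 p, within 1 unit, in 100% of entries. The sources used here do not say how input was used, and library depth is unknown.

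Entries were read with pandas 2.3.3 in Python 3.11.15. Entries of a list that overlapped were joined into regions, and a counterpart overlapped by at least 1 bp. Genes and promoters came from RefSeq GRCm38.p6, with the coordinates of mm10, and all 85 listed genes matched. Wilson intervals used scipy 1.17.1. Overlap code was checked on simulated lists. Members and gene lists were chosen with earlier results of these data known. Named genes were Foxp3, its window neighbours, 3 comparison genes, up to 3 per role by highest fold in stimulated Treg, and the 5 nearest in pattern. One gene that this rule names is not reported here. X-linked genes, Plp2, Magix, Tfe3, Wdr45, Mdfic, Uhrf1 and genes without an entry were added after their values were seen.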

Additional observations from a re-analysis of the deposited data

How the results depend on the processing

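No paired analysis was possible because each list pools both libraries of its group, and for the same reason no replicate could be left out. The locus had 0 entries in the other 3 lists, and its regions 0 counterparts, under each of the alternatives run: a common −log10 p cut-off of 38.1, equal list lengths of 3132 entries, windows of 10 and 50 kb, summits inside the window, merged regions, reciprocal overlap of 50%, summits within 250 bp and gaps of up to 1 kb. Of these alternatives, only the 50 kb window could have added an entry. The others drop or join entries or look inside the same window, so their 0 followed from the reported 0. The stimulated Treg count of 5 fell to 2 with equal list lengths (the CNS0 and CNS2 entries) and to 3 with 10 kb, since fewer entries or less sequence enter. Over all genes, those with an entry numbered 2636 in unstimulated Tconv and 2965 in unstimulated Treg at the common cut-off. With equal lengths the order of the lists turned: they numbered 3466 in stimulated Tconv and 2590 in stimulated Treg, below the 5375 in unstimulated Tconv, and 260 genes had the Foxp3 pattern. Ranked by −log10 p or −log10 q, the percent of the list below was 91.5 for CNS2, 90.7 for CNS0, 64.7 for the promoter, 62.5 for the -11.9 kb entry and 36.3 for the Cacna1f entry. Among X-linked entries by fold it was 96.1, 94.8, 74.9, 72.3 and 32.5. In all, 52 of 74 alternative values stayed within 1.5 times the reported count or within the 95% interval of the reported percent. These 52 include the values of 0 that could not have changed.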

Other observations

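Names in the lists number the initial calls in genome order (100% of chromosomes in each list) and give letters to the summits of a call. From the first to the last Foxp3 entry the stimulated Treg numbers span 14 calls, of which 5 are in the list. Between the CNS0 and promoter entries 3 numbers are absent, between promoter and CNS2 2, and between CNS2 and Cacna1f 4. The -11.9 kb entry carries the letter c and the promoter entry b, so 2 and 1 earlier summits of those calls are not among the kept entries. In unstimulated Treg, 20 numbers lie between the kept entries that flank the locus, 395 kb apart. The lists do not say where those calls were or why they were not kept.

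Chuk, which encodes the kinase IKK-alpha, was the member of the upstream list with entries in both unstimulated lists (8.68-fold in Tconv, 7.97-fold in Treg) and in neither stimulated one. Foxo3, whose product is known to activate Foxp3, had entries of up to 31.7-fold in unstimulated Treg, 27.1-fold in unstimulated Tconv, 17.4-fold in stimulated Treg and 19.6-fold in stimulated Tconv. These genes were picked after their values were seen.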
